A study of Homo sapiens with 2 samples.

Results

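Expressed long noncoding transcripts of 3 naming classes were examined in a carboplatin-treated ovarian cancer line: LINC (long intergenic noncoding RNA), antisense (symbols ending in -AS1, -AS2 or -AS3) and SNHG (small nucleolar RNA host gene) symbols. Members were chosen by symbol and by level, with at least 1 FPKM (a level per kilobase of transcript and per 1000000 mapped fragments) in either of the 2 libraries, with OIP5-AS1 left out. The rule kept 394 of 1865 symbols of these kinds, in tables of 26255 gene symbols. There were 93 LINC, 282 antisense and 19 SNHG members. Of the 1471 symbols below the level rule, 1004 were at 0 in both libraries. Just outside the threshold lay FOCAD-AS1 (0 FPKM in the perturbed library and 0.999 in the control) and ZNF30-AS1 (0.998 and 0.488), and just inside lay LINC00638 (0.633 and 1.001) and PTOV1-AS2 (1.004 and 0.123).

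OVSAHO is an established line of human serous ovarian cancer cells. The perturbed library came from cells named OVSAHO-A2-siA4, with the genotype label "SMARCA2 stable, SMARCA4 knockdown". The control library came from OVSAHO-Ctrl-siNC cells, with the genotype label WT. The series text describes the first as having SMARCA2 raised and SMARCA4 lowered. Both cultures received carboplatin, which forms platinum adducts and crosslinks on DNA, at 25 µM for 2 days, so no untreated cells enter any value here. Each group was 1 library, which leaves no replicate error and allows no test. SMARCA2 and SMARCA4 are the alternative ATPases of the SWI/SNF chromatin remodelling complex. SMARCA2 had 2.60 FPKM in the perturbed library and 0.205 in the control, and SMARCA4 at 4.49 and 27.9 FPKM. A member was counted as higher or lower where its FPKM + 1 differed by at least 2-fold, that is, where the log2 ratio of perturbed to control reached 1 or -1. Intervals given with ratios are 95% Clopper-Pearson intervals on approximated fragment numbers, and they cover counting error only, since copies made by PCR are not independent molecules. Depth was about 8870000 fragments in the perturbed library and 9050000 in the control. Of 9 serous carcinoma markers 8 were at 1 FPKM or more, with keratin KRT7 at 119 and 540 FPKM and WT1 at 5.52 and 1.53. MUC16 was at 0 and 0.0608 FPKM. PTPRC and CD3E, defining markers of leukocytes, were at 0 in both libraries, while CD68 was at 11.1 and 34.9 FPKM. All 3 endothelial and 5 fibroblast markers were under 1 FPKM.

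Long noncoding RNAs are transcribed, and often spliced and polyadenylated, without encoding a long protein. SNHG transcripts carry small nucleolar RNAs (snoRNAs) in their introns: box C/D snoRNAs guide ribose methylation and box H/ACA snoRNAs guide pseudouridylation of ribosomal and spliceosomal RNA. The spliced exons left over are commonly degraded by nonsense-mediated decay while being translated, and many such host genes start at a terminal oligopyrimidine tract, the start-site signature of ribosomal protein genes. Antisense transcripts run on the opposite strand of a protein-coding gene, overlapping it or leaving its promoter in the other direction. The libraries did not mark strand, so where exons overlap, reads from an antisense member and its sense gene cannot be told apart.

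The start windows of SNHG members are shown because this start signature groups them with ribosomal protein genes by sequence, whichever way their levels differed. Each window runs 5′ to 3′ from 20 bases before to 30 bases after the annotated start in the RefSeq table of GRCh38.p14, a later build than the hg19 of the files. Capitals mark a C followed by at least 4 further C or T letters, beginning within 5 bases of the start, on the transcribed strand only.
SNHG19 (chr16:2155329-2155378, minus strand): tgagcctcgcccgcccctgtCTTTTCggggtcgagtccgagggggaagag
SNHG12 (chr1:28581844-28581893, minus strand): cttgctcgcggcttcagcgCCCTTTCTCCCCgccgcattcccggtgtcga
SNHG17 (chr20:38435299-38435348, minus strand): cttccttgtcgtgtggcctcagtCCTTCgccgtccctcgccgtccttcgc
SNHG8 (chr4:118278742-118278791, plus strand): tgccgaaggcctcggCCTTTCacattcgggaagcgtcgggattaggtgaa
SNHG16 (chr17:76557744-76557793, plus strand): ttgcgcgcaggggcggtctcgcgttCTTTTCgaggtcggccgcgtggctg
SNHG18 (chr5:9546180-9546229, plus strand): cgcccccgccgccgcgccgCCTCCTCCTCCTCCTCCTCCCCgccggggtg
SNHG1 (chr11:62855856-62855905, minus strand): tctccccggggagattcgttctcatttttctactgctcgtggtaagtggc
SNHG3 (chr1:28505923-28505972, plus strand): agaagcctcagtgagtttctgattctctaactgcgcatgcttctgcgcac
SNHG11 (chr20:38446634-38446683, plus strand): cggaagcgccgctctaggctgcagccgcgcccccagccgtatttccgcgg
SNHG20 (chr17:77088623-77088672, plus strand): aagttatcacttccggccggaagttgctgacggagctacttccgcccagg
A run of this kind was present in 9 of the 15 SNHG windows in the table (60%), in 74.0% of 77 promoters of cytosolic ribosomal protein genes and in 21.1% of all 35116 promoters. The share was 30.4% of 79 promoters of LINC members and 14.5% of 275 promoters of antisense members. Among the 9 SNHG members with a run, the ratio of FPKM was above 1 in 5 and below 1 in 4, and among the 6 without one it was above 1 in 3 and below 1 in 3. The run was thus found on both sides of the comparison. A match describes the letters at an annotated start, which may not be the start used in these cells, and a window without a match says only that these letters were not there.

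Most members were within 2-fold between the libraries. Of the 394, 33 were higher in the perturbed library (8.38%) and 44 were lower (11.2%), leaving 317 within the rule. Over all 11785 genes at the same level, 7.85% were higher and 7.61% lower. The share higher was therefore near the background, and the share lower was above it. The median log2 ratio of the members was -0.22, against -0.06 over all genes at that level. The summed FPKM of the tables differed between the libraries, and bringing both to a common sum moved the all-gene median to 0.07 and the split of the same 394 members to 40 higher (10.2%) and 32 lower (8.12%), so that the larger count changed side. All genes moved alike, to 9.93% higher and 5.58% lower. With the level rule applied again after scaling, 399 symbols entered, 41 higher and 32 lower. Centring the ratios on the all-gene median gave 37 higher and 38 lower. The members' median minus the all-gene median was -0.16 as deposited and -0.18 after common scaling of the same members. All 33 members counted as higher kept that call under both scalings, and 32 of the 44 counted as lower did. Both scalings move ratios upward, so only lower calls could be lost, and the 33 kept say nothing of how firm they are. Since a member could enter through 1 library alone (54 only through the perturbed library and 62 only through the control), the 278 at 1 FPKM or more in both are given as well: 10 were higher (3.60%) and 21 lower (7.55%), with a median log2 ratio of -0.20. All 10216 genes at that level in both libraries had 5.45% higher and 6.85% lower and a median of -0.10, so the share lower was near the background there and the members' median minus the all-gene median was -0.11.

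**Figure D1:**
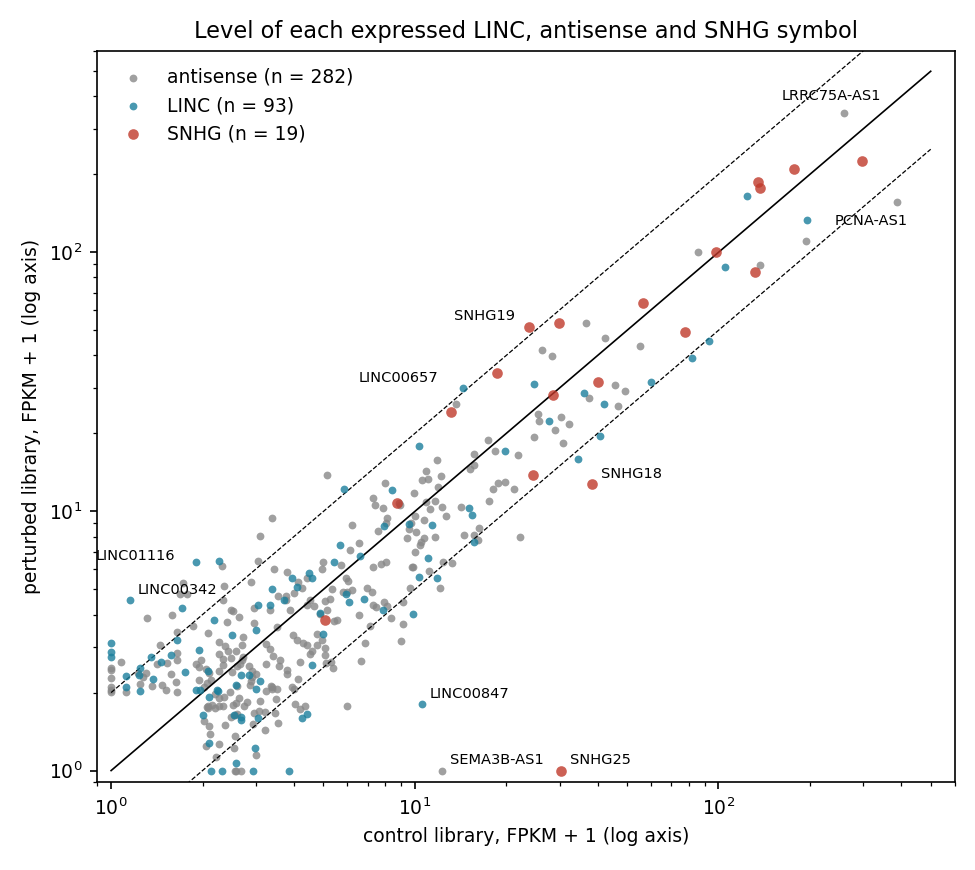
Each point is 1 member, with FPKM + 1 in the control library on the horizontal axis and in the perturbed library on the vertical axis, both logarithmic; the solid line marks equal levels, the dashed lines the 2-fold rule, and colours the 3 classes (93 LINC, 282 antisense, 19 SNHG). SNHG members lie mostly at the high end and within the dashed lines, while the members beyond them are mostly under 10 FPKM.

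The 3 classes differed in level. SNHG members had a median of 48.4 FPKM in the perturbed library and 37.5 in the control, and 17 of 19 reached 10 FPKM in at least 1 library. LINC members had medians of 3.01 and 2.39 FPKM and antisense members of 2.70 and 2.997. By class, 12 LINC members were higher (12.9%) and 16 lower (17.2%), 20 antisense members were higher (7.09%) and 26 lower (9.22%), and 1 SNHG member was higher and 2 lower. The median log2 ratio was -0.15 for LINC, -0.25 for antisense and 0.03 for SNHG members. After common scaling these medians were -0.07, -0.14 and 0.17, beside 0.07 over all genes. The larger count then changed side in 2 classes, with 13 LINC members higher and 10 lower and 24 antisense members higher and 20 lower, and 3 SNHG members were higher and 2 lower. All members together made up 0.524% of the summed FPKM in the perturbed library and 0.553% in the control.

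Members were shorter and scarcer than most genes, so counts were also read at matched levels. Among members whose higher library was at 20 FPKM or more, 2 of 55 were higher (3.64%) and 8 lower (14.5%), where all genes of that level had 3.86% and 9.63%. At 5 to under 20 FPKM, 7.41% of 108 members were higher and 13.0% lower, against 10.7% and 7.89% of all genes. From 1 to under 2 FPKM the members were at 10.3% higher and 8.62% lower, against 7.61% and 3.84%. The share lower was thus above that of all genes at each of these levels, as the bars by level show. These levels are those of the higher library, so a member can enter through 1 library alone. Of the 116 members from 1 to under 2 FPKM, 41 reached 1 FPKM only in the perturbed library and 44 only in the control. With 1 FPKM in both libraries the share lower was near the background, 7.55% against 6.85%. By transcript length, the median log2 ratio of members under 1000 bases was -0.23 against -0.02 for all genes of that length. For 1000 to under 2000 bases it was -0.29 for members and -0.16 for all genes. For 2000 to under 4000 bases it was -0.12 for members and -0.16 for all genes. At 4000 bases or more, with 8 members, it was 0.29 and 0.21. The other 169 genes with a lncRNA record in RefSeq, outside the naming rule, had 15.4% higher, 10.1% lower and a median of 0.02. None of these differences between lists was tested.

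**Figure D2:**
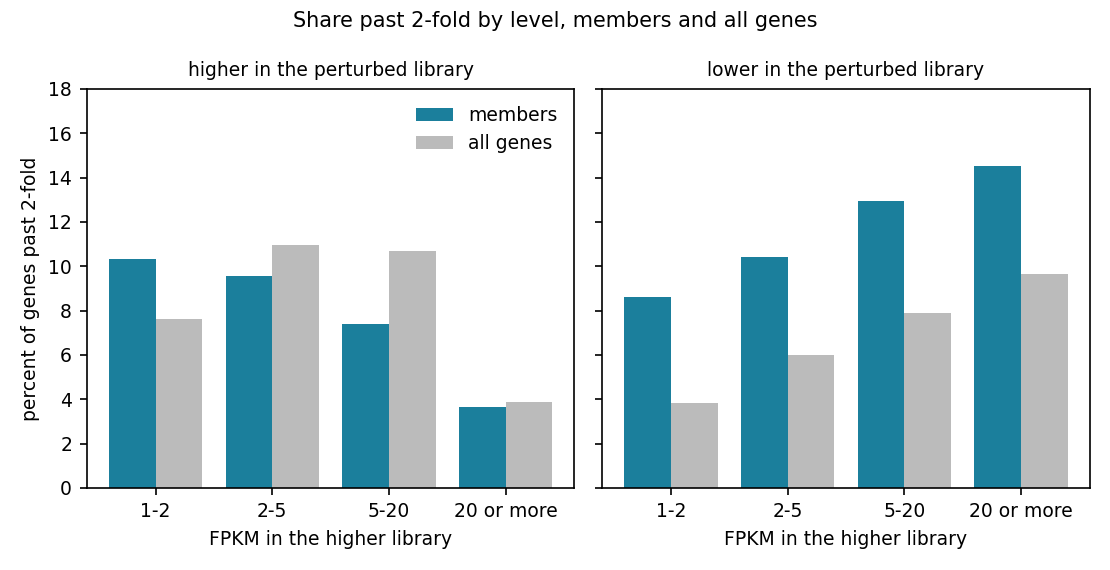
Bars give the percent of genes past the 2-fold rule by the FPKM of the higher library, for the 394 members and for all 11785 genes at 1 FPKM or more; the left panel counts those higher in the perturbed library and the right panel those lower. In the right panel the bar of the members is above that of all genes at every level, from 8.62% against 3.84% at the lowest to 14.5% against 9.63% at the highest. Genes can enter a level through 1 library alone, and with 1 FPKM in both libraries the share lower was 7.55% of members against 6.85% of all genes.

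Of 19 SNHG members 16 were within the 2-fold rule, and their ratios lay on both sides of 1. Of the 16 with a transcript length that allowed an interval, 7 had an interval wholly above 1 and 6 wholly below 1. After common scaling these counts were again 7 and 6. The members had a median of 714 fragments over both libraries, so counting error was small for most of them, and spread between cultures was not measured.

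SNHG19, host of the box C/D snoRNA SNORD60, had 50.7 FPKM in the perturbed library and 22.7 in the control, a ratio of 2.23 (1.43 to 3.62). It was the 1 SNHG member past the rule upward. SNHG3, host of the H/ACA snoRNAs SNORA73A and SNORA73B, was at 23.2 and 12.1 FPKM (ratio 1.91, 1.62 to 2.26). SNHG12, which hosts 4 H/ACA and 1 C/D snoRNA genes, was at 33.2 and 17.7 FPKM (ratio 1.88, 1.53 to 2.33). SNHG1, host of 6 C/D snoRNA genes, was at 52.6 and 28.8 FPKM (ratio 1.83, 1.57 to 2.12). These 3 stayed under the rule as deposited, and common scaling brought SNHG3 and SNHG12 past it, with log2 ratios of 1.01 and 1.01. The gene next to SNHG1 on chromosome 11, SLC3A2, which encodes an amino acid transporter subunit, went the other way at 388 and 1470 FPKM, and WDR74, on the other side, was at 100.3 and 187. On chromosome 1, RCC1, which overlaps SNHG3 and encodes the nucleotide exchange factor of RAN, was at 85.1 and 100.5 FPKM. TRNAU1AP, which overlaps SNHG12 and lies next to SNHG3, was at 31.7 and 31.0 FPKM. These overlapping and neighbouring genes were thus not higher along with the host transcripts, though reads of overlapping genes cannot be told apart.

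A second group was higher by less. SNHG6, host of SNORD87, had 186 FPKM in the perturbed library and 134 in the control (ratio 1.39, 1.24 to 1.56). SNHG17, host of the H/ACA snoRNAs SNORA71A, SNORA71B, SNORA71C and SNORA71D, was at 177 and 136 FPKM (ratio 1.30, 1.19 to 1.42). SNHG8, host of SNORA24, was at 209 and 177 FPKM (ratio 1.18, 1.03 to 1.34). LRRC75A-AS1, an antisense member by symbol that RefSeq now calls SNHG29 and that hosts SNORD49A, SNORD49B and SNORD65, was the most abundant member in the perturbed library. It was at 345 and 258 FPKM (ratio 1.33, 1.24 to 1.43), while its sense gene LRRC75A was at 1.13 and 1.02.

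SNHG5, SNHG9, SNHG10 and SNHG21 were near equal in the libraries. SNHG5, host of SNORD50B, was at 62.8 and 55.4 FPKM (ratio 1.14, 0.876 to 1.47) and SNHG21, host of the Cajal body RNA SCARNA15, at 27.1 and 27.6 (ratio 0.983, 0.755 to 1.29). The log2 ratio of SNHG21 was -0.02 as deposited and 0.11 after common scaling, so its sign depended on the scaling. SNHG9, a 275-base transcript beside the ribosomal protein gene RPS2, was at 99.2 and 97.2 FPKM, and RPS2 at 3013 and 2835. SNHG10 was at 9.76 and 7.77 FPKM.

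Lower in the perturbed library were SNHG18, SNHG20, SNHG11, SNHG15, SNHG7 and SNHG16. SNHG18, host of SNORD123, was at 11.8 FPKM against 37.5, 3.18-fold lower (2.67 to 3.81), and was the lowest ratio with an interval among SNHG members. Its neighbours on chromosome 5, SEMA5A and TAS2R1, were both under 1 FPKM. SNHG20, host of SCARNA16, was at 12.8 and 23.6 FPKM (1.84-fold lower, 1.57 to 2.18). SNHG15, host of SNORA9, was at 48.4 and 76.4 FPKM (1.58-fold lower, 1.35 to 1.84). SNHG11, host of SNORA60, was at 83.0 and 131 FPKM (1.58-fold lower, 1.42 to 1.75). SNHG11 and SNHG17 lie side by side on chromosome 20 on opposite strands, and their ratios fell on opposite sides of 1. SNHG16, the most abundant SNHG member and host of SNORD1A, SNORD1B and SNORD1C, was at 224 and 296 FPKM (1.32-fold lower, 1.27 to 1.38). SNHG7, host of SNORA17A and SNORA17B, was at 30.5 and 39.1 FPKM (1.28-fold lower, 1.11 to 1.48). SNHG4, host of SNORA74A, was at 2.80 and 4.05 FPKM with an interval that includes 1 (ratio 0.692, 0.299 to 1.49). SNHG25, listed at 0 and 29.4 FPKM, is a 106-base transcript, shorter than most fragments, so its value gives no fragment number and no fold is stated.

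**Figure D3:**
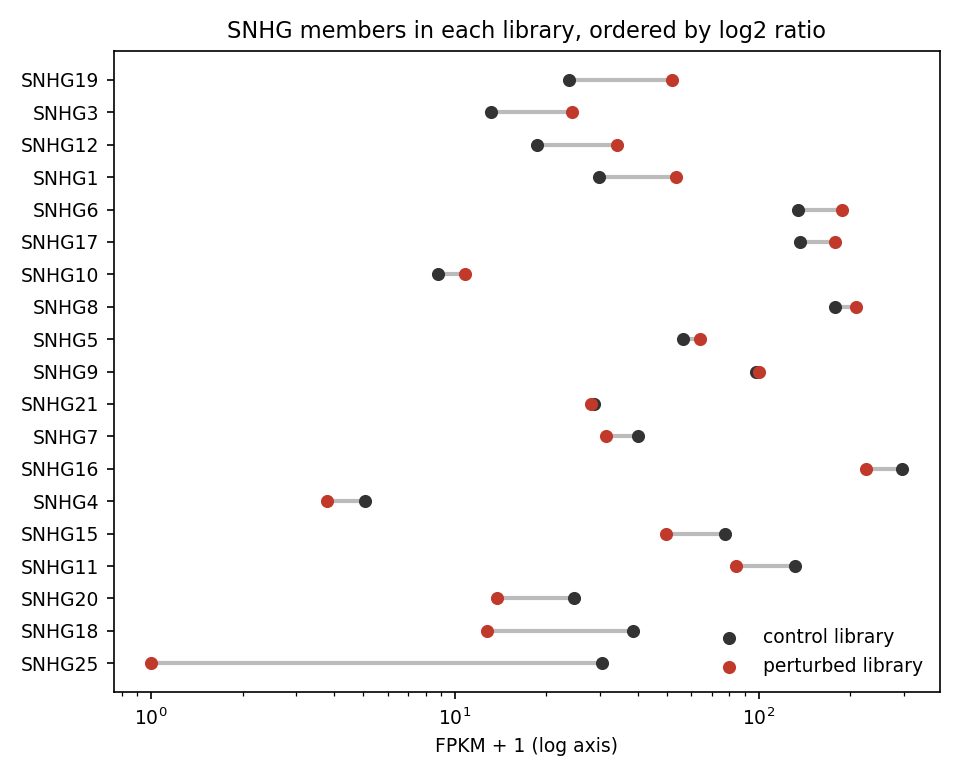
For each of the 19 SNHG members, ordered by log2 ratio, the points give FPKM + 1 on a logarithmic axis in the control library (dark) and the perturbed library (red), joined by a grey line. The upper rows lie higher in the perturbed library (SNHG19 at 50.7 against 22.7 FPKM) and the lower rows higher in the control (SNHG18 at 11.8 against 37.5).

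Genes that work with these hosts were counted from lists. Over all 11785 genes at the level rule, 7.85% were higher and 7.61% lower, with a median log2 ratio of -0.06. Differences of these short lists from all genes were not tested. Of 18 snoRNP proteins and assembly factors at the level rule, 2 were higher and 0 lower, with a median log2 ratio of -0.04: FBL, the methyltransferase of box C/D particles, at 188 and 83.9 FPKM, and ZNHIT6, an assembly factor, at 5.68 and 1.92. Of 16 nonsense-mediated decay genes, 1 was higher and 1 lower, and the median log2 ratio was 0.49. UPF1, the helicase of the pathway, was at 17.4 and 6.35 FPKM (ratio 2.74, 2.40 to 3.15), and SMG8, a subunit of the kinase complex that phosphorylates it, at 6.70 and 20.8 (3.11-fold lower, 2.63 to 3.69). Of 23 nuclear exosome and lncRNA turnover genes, 0 were higher and 0 lower, and the median log2 ratio was -0.13. A list of snoRNA hosts and terminal oligopyrimidine lncRNAs without SNHG symbols had 1 higher (RNU12) and 1 lower (DANCR) of 8. These 8 include the small nuclear RNA gene RNU12 and EPB41L4A-AS1 and LINC00152, which are also members. GAS5 was at 349 and 314 FPKM and ZFAS1 at 165 and 147, while DANCR was 2.14-fold lower (99.8 and 214 FPKM, 1.95 to 2.36). RNU12 was at 41.8 and 0 FPKM, with no interval, and none of the hosts and lncRNAs in the list passed the 2-fold rule upward. Ratios above 1 were still common, in 6 of the 8 genes with RNU12 included, while DANCR and LINC00152 were below 1. PVT1 came nearest to the rule, with a log2 ratio of 0.95 and a ratio of FPKM of 2.35 (1.51 to 3.73). GAS5 (ratio 1.11, 1.03 to 1.20) and ZFAS1 (ratio 1.13, 1.03 to 1.24) also had intervals above 1.

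LINC members held several abundant transcripts. LINC01420 had 164 FPKM in the perturbed library and 123 in the control, and LINC00493 at 133 and 194 (1.47-fold lower, 1.28 to 1.68). Both are now annotated as coding: the first as NBDY, a microprotein that binds the mRNA decapping complex, and the second as SMIM26, a small mitochondrial protein. LINC00998, now SMIM30, was at 44.5 and 91.8 FPKM (2.06-fold lower, 1.81 to 2.35), and LINC00116, now MTLN, a mitochondrial microprotein, was at 27.8 and 35.0. LINC00152, known as CYTOR, was at 86.7 and 104 FPKM (1.20-fold lower, 1.01 to 1.42). LINC00665, a chromosome 19 transcript among zinc finger genes, was at 38.1 and 80.8 FPKM (2.12-fold lower, 1.90 to 2.36). Its neighbours ZNF565 (6.20 and 4.18 FPKM) and ZFP14 (0.186 and 0.136) were not lower. LINC00839 was at 30.6 and 58.9 FPKM (1.93-fold lower, 1.74 to 2.14). Of these 6 most abundant LINC transcripts (LINC01420, LINC00493, LINC00152, LINC00998, LINC00665 and LINC00839), 5 had a ratio below 1 and 1 above it. Ratios below 1 were common at such levels, since 32.9% of all genes at 20 FPKM or more had a log2 ratio above 0 and their median was -0.26. LINC00665 and LINC00998 alone of the 6 passed the 2-fold rule, and both left it after common scaling, at log2 ratios of -0.93 and -0.89.

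LINC00657, known as NORAD, is singled out after its values were seen, as the higher LINC member with the most fragments. It is a long cytoplasmic RNA that binds PUMILIO proteins, repressors of mRNAs that carry their motif. It had 28.9 FPKM in the perturbed library and 13.4 in the control, a ratio of 2.15 (1.95 to 2.37) from about 1317 and 625 fragments. Its neighbours CNBD2 (0.166 and 0 FPKM) and EPB41L1 (1.98 and 0.963) were far less abundant. The PUMILIO motif TGTANATA was searched on the transcript strand of its 5339-base GENCODE transcript, with overlaps allowed, and was found 15 times. Of 1012 lncRNA transcripts of at least 4000 bases, 40.0% had at least 1 match and 3 others had 15 or more, the highest 37. The sites below are shown with the motif in capitals and 10 bases on each side, named by the transcript position of the first capital.
LINC00657 site at 1140: ctcactactgTGTATATAgttgacaatg
LINC00657 site at 1241: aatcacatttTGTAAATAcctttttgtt
LINC00657 site at 2972: aaccctactgTGTATATAgcggacaaac
LINC00657 site at 3593: aatgctactgTGTATATAatggaaaact
The levels describe the RNA alone and say nothing of binding.

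The largest LINC ratios came from less abundant transcripts. LINC01116, between MTX2 and HNRNPA3 on chromosome 2, had 5.40 FPKM in the perturbed library and 0.903 in the control (ratio 5.98, 2.999 to 13.0). Its neighbour by name, LINC01117, was at 1.49 and 0.243 FPKM, with an interval that includes 1. HNRNPA3 was at 33.3 and 16.2 FPKM and MTX2 at 50.8 and 39.7. LINC01068 was at 5.46 and 1.27 FPKM (ratio 4.29, 1.57 to 14.5), and LINC00342 at 3.55 and 0.151 with no length for an interval. The 3 others were listed at 0 in the control: LINC00618 at 2.12 FPKM, LINC01337 at 1.88 and LINC00539 at 1.75. LINC00618 came to about 1.90 fragments and LINC01337 to about 4, so a 0 in the other library says little.

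Downward, LINC00847 on chromosome 5 had 0.811 FPKM in the perturbed library and 9.53 in the control, 11.8-fold lower (6.39 to 22.8), from about 11.8 and 141 fragments. Its neighbours MGAT1, a glycosyltransferase gene, and ZFP62 had 82.5 and 161 FPKM, and 2.32 and 2.92 FPKM. LINC00221 was at 0.655 and 3.42 FPKM (5.22-fold lower, 2.57 to 13.5). LINC01089 was at 0.599 and 3.26 FPKM (5.45-fold lower, 2.38 to 16.6), and RHOF, a small GTPase gene that it overlaps, was lower too at 15.7 and 33.2 FPKM. Reads of these overlapping genes cannot be told apart. LINC01506 was at 3.01 and 8.84 FPKM with an interval that includes 1. LINC01054 (0 and 2.84 FPKM) and LINC00853 (0 and 1.92 FPKM) each rested on about 8 fragments in the control.

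**Figure D4:**
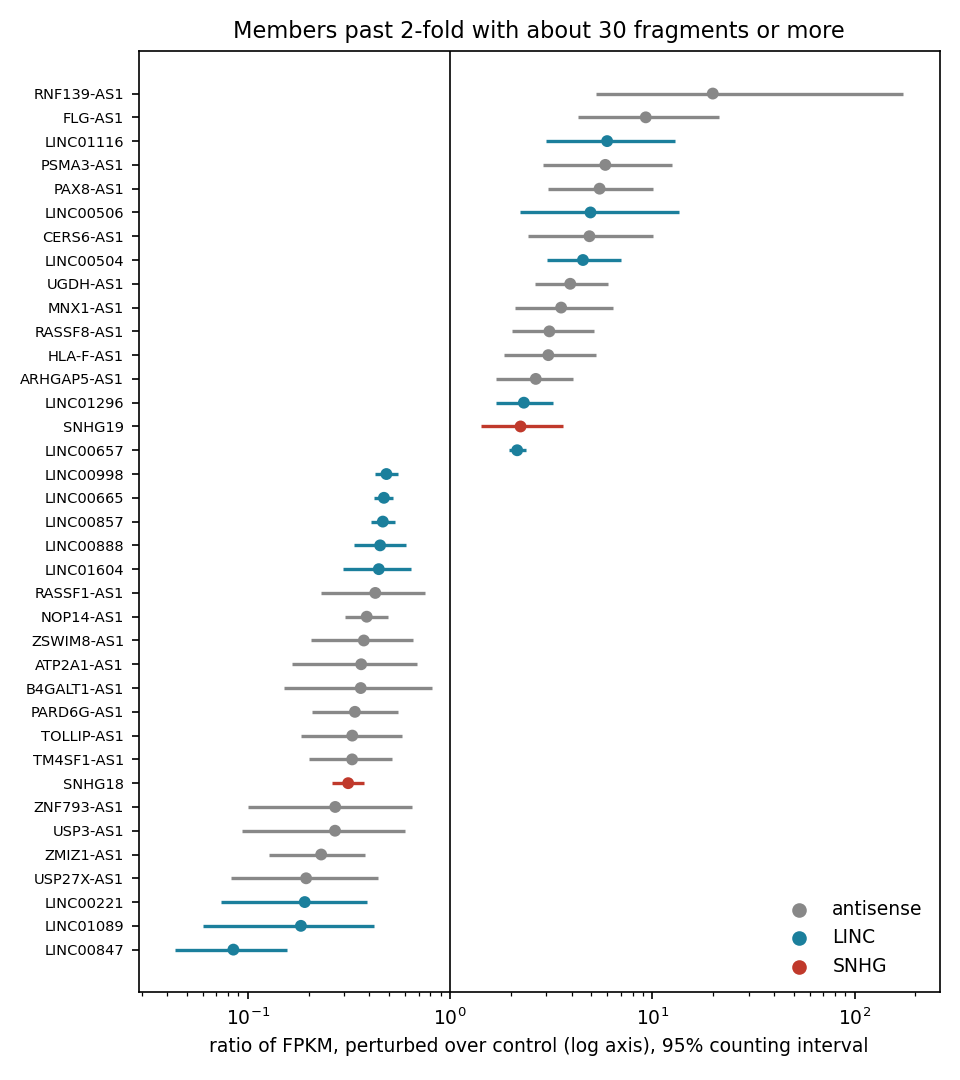
Ratios of FPKM, perturbed over control, on a logarithmic axis for the 37 members past the 2-fold rule with about 30 fragments or more over both libraries (16 higher and 21 lower), with 95% counting intervals as bars and classes as colours. LINC00657 and the lower LINC members from LINC00998 to LINC00857 have the narrowest bars, while RNF139-AS1 at the top has one from 5.29 to 174.

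Antisense members were read with their sense genes. Of 282, 279 had a measured sense gene, and in 226 pairs that gene was at 1 FPKM or more in a library. Across these 226 pairs the log2 ratios of antisense and sense were weakly related (Pearson r = 0.25, Spearman rho = 0.25), and 135 pairs had the same sign. Both values of a pair come from the same 2 libraries, and the members are no replicates, so this is a description. By annotation, r was 0.32 over 145 pairs whose exons overlap, 0.18 over 50 pairs with no overlap and 0.09 over 23 pairs in which only the gene bodies overlap. Of 35 antisense members past the rule in these pairs, 26 had a sense gene within it. Over all 226 pairs the sense gene was higher in 22 and lower in 15, so a sense gene within the rule was the common case. The sense gene was the more abundant in most pairs, but the antisense member had the higher FPKM in 72 pairs in the control and in 56 in the perturbed library.

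In 4 pairs both partners were higher. FLG-AS1 had 2.89 FPKM in the perturbed library and 0.311 in the control (ratio 9.29, 4.29 to 21.5), with the epidermal structural gene FLG at 9.24 and 1.07. LMO7-AS1 was at 7.05 and 2.09 FPKM with LMO7 at 4.26 and 1.36, and NCAM1-AS1 at 2.43 and 0.648 with the adhesion gene NCAM1 at 11.0 and 2.095. IGF2BP2-AS1 was at 1.27 and 0 FPKM with the RNA-binding protein gene IGF2BP2 at 11.9 and 4.69. Both partners were lower in 3 pairs. TM4SF1-AS1 was at 6.97 and 21.2 FPKM (3.04-fold lower, 1.94 to 4.95) with the surface protein gene TM4SF1 at 225 and 550. RASSF1-AS1 was at 3.48 and 8.13 FPKM with RASSF1 at 57.8 and 129, and APOBEC3B-AS1 at 0.226 and 1.55 with the cytidine deaminase gene APOBEC3B at 3.04 and 41.9. RASSF1-AS1 and APOBEC3B-AS1 left the rule under both scalings. In these 7 pairs the exons overlap, except for IGF2BP2-AS1, so the antisense value can hold sense reads.

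In 2 pairs the partners moved in opposite directions, and neither pair overlaps in the annotation. ZMIZ1-AS1 had 0.776 FPKM in the perturbed library and 3.36 in the control (ratio 0.231, 0.128 to 0.381), where ZMIZ1, a transcriptional coregulator, was at 13.8 and 3.56. PARD3-AS1, now named as a divergent transcript, was at 1.65 and 5.67 FPKM with an interval that includes 1, where the polarity gene PARD3 was at 3.85 and 0.450. The first pair is the better counted, with about 18.4 and 81.4 fragments for the antisense member.

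**Figure D5:**
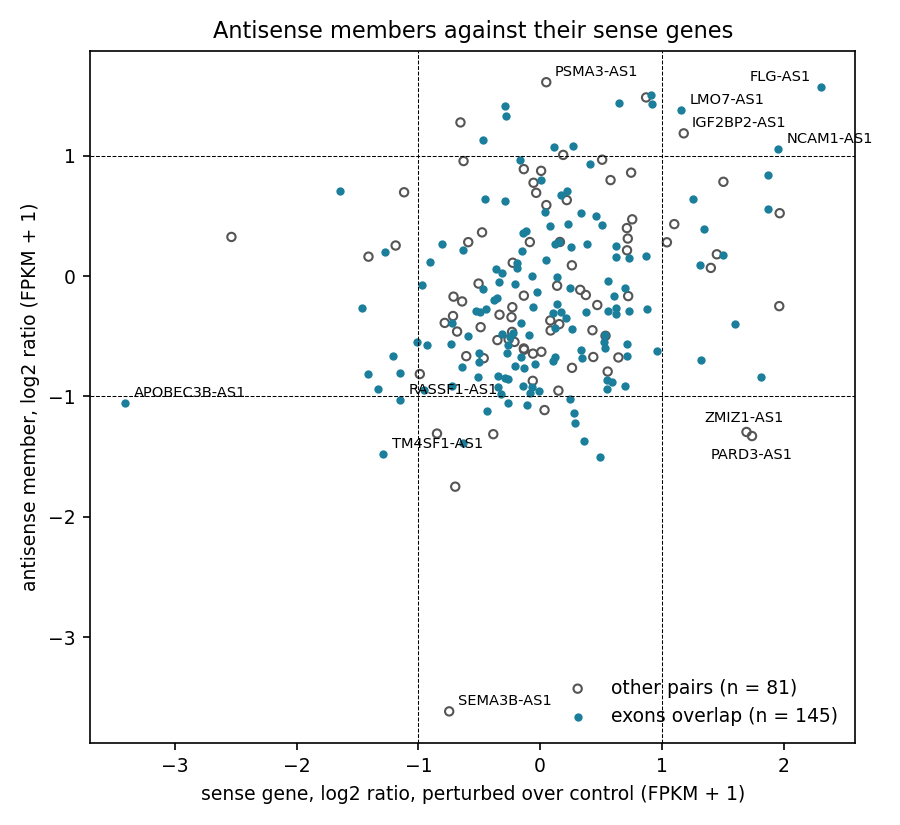
Log2 ratios of FPKM + 1, perturbed over control, of 226 antisense members (vertical) against their sense genes (horizontal); filled points are the 145 pairs with exon overlap, open points the 81 others, and dashed lines the 2-fold rule. Points lie widely around 0 on both axes, and 9 pairs have both partners past the rule: 4 upper right, 3 lower left, and ZMIZ1-AS1 and PARD3-AS1 lower right.

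Among the 6 largest antisense log2 ratios of FPKM + 1 upward, all sense genes but FLG stayed within the 2-fold rule. All of these except PSMA3 had a ratio of FPKM with an interval above 1. These were PAX8 (1.93, 1.76 to 2.11), CERS6 (2.43, 1.68 to 3.60), MNX1 (7.15, 2.06 to 77.4) and RASSF8 (4.78, 1.86 to 13.6). The ratios of the scarce MNX1 and RASSF8 were larger than those of their antisense members. PSMA3-AS1 had 4.28 FPKM in the perturbed library and 0.729 in the control (ratio 5.86, 2.89 to 12.6), whereas the proteasome subunit gene PSMA3 was at 214 and 206. PAX8-AS1 was at 3.79 and 0.691 FPKM (ratio 5.49, 3.07 to 10.1), and PAX8, the transcription factor that marks Müllerian and serous tumour cells, was at 42.1 and 21.9. MNX1-AS1 was at 8.48 and 2.39 FPKM (ratio 3.55, 2.09 to 6.41), above its homeobox sense gene MNX1 at 1.11 and 0.156. CERS6-AS1 was at 3.82 and 0.780 FPKM (ratio 4.90, 2.43 to 10.1) with the ceramide synthase gene CERS6 at 1.62 and 0.667. Exons of CERS6 cover 69.7% of its exon length, so its value can hold sense reads. RASSF8-AS1 was at 12.8 and 4.13 FPKM (ratio 3.10, 2.02 to 5.15) with RASSF8 at 1.47 and 0.307. In MNX1, CERS6 and RASSF8 the antisense member was thus the more abundant partner in both libraries.

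Among the largest antisense ratios downward, SEMA3B-AS1 was listed at 0 FPKM in the perturbed library and 11.3 in the control, from about 14.1 fragments, with SEMA3B, a secreted semaphorin gene, at 12.5 and 21.7. CSE1L-AS1, now named as a divergent transcript, was at 0.783 and 4.99 FPKM (6.38-fold lower, 1.18 to 50.1), beside the nuclear export receptor gene CSE1L at 85.2 and 139. ZNF793-AS1 was at 2.18 and 8.02 FPKM (3.69-fold lower, 1.54 to 9.93), and its sense gene ZNF793 was not lower, at 1.91 and 1.07. USP30-AS1 was at 0.145 and 1.99 FPKM with USP30 at 3.30 and 5.65, and DPP10-AS1 at 0 and 1.67 with DPP10 at 0 in both libraries. The last 2 rested on about 8.22 and 8.02 fragments in the control.

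The most abundant antisense symbols lay beside sense genes of very different levels. PCNA-AS1 was the most abundant member in the control, at 156 FPKM in the perturbed library against 388. PCNA, the replication clamp, was at 147 and 265 FPKM, so the antisense symbol had the larger value in both libraries, and reads of the pair were not separated by strand. FBXO22-AS1 was at 110 and 193 FPKM with FBXO22 at 22.2 and 45.0. RALY-AS1 was at 42.5 and 54.1 FPKM with RALY, an RNA-binding protein gene, at 88.6 and 104. NCBP2-AS2, now annotated as the coding gene NCBP2AS2, was at 88.4 and 136 FPKM (1.53-fold lower, 1.38 to 1.71) with the cap-binding gene NCBP2 at 78.0 and 85.5. IQCH-AS1 was at 99.1 and 84.7 FPKM while IQCH was at 0 and 0.133.

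Symbols of the deposited tables are older than current annotation. RefSeq records were found for 393 of 394 members, 89 of them under another current symbol, and 42 antisense members are now called divergent transcripts. Of those 42, 1 was higher and 4 lower, with a median log2 ratio of -0.25, and of the other 240 antisense members 19 were higher and 22 lower (median -0.24). There were 12 members with a protein-coding record, of which 0 were higher and 1 lower (8.33%). A further 6 were recorded as transcribed pseudogenes, among them LINC01296, now DUXAP9, at 11.3 FPKM in the perturbed library and 4.85 in the control. Its near-identical copies make that value uncertain. LINC00888, now SNHG33, was at 6.65 and 14.7 FPKM (ratio 0.452, 0.337 to 0.607) and left the rule under both scalings.

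How firmly a ratio stands depended on fragment numbers. The 346 members with a length of at least 300 bases had a median of 63.9 fragments over both libraries, 38 had under 10 and 120 had 100 or more. Of 70 such members past the rule, 56 had an interval that excludes 1 and 24 had both bounds beyond 2-fold, while 33 had under 30 fragments. There were 18 members listed at 0 in 1 library, 9 in each, and every one passes the rule by construction, since 1 FPKM against 0 is 2-fold with a pseudocount of 1 FPKM. The 16 of them with a length of at least 300 bases rested on about 1.90 to 19.0 fragments in the other library.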

How the data were processed

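Total RNA was purified with a micro-scale kit, cDNA was made with SMART-Seq HT, which primes at the poly(A) tail and does not mark strand, and libraries were made with Nextera XT, per the labels' protocols. The authors deposited 1 FPKM table per library with 1 value per gene symbol, per the file headers. Cuffdiff 2.2.1, TopHat2 2.1.1, SAMtools 0.1.18, Bowtie2 2.2.8 and the build hg19 stand in the submitters' processing notes. How reads shared by genes were treated, and with which annotation and filters, is not given in the sources used here, and FPKM of short transcripts depends on how length was corrected.

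The members and lists were chosen with earlier results of these data known. Ratios were computed as log2 of FPKM + 1 with Python 3.11.15, pandas 2.3.3 and NumPy 2.4.6, with no test, since there was 1 library per group. Depth was recovered from the steps that 1 fragment makes in low FPKM values, in genes with 1 matched GENCODE 29 transcript, its length shortened by 200 bases. The fit rested on 273 values at 1 fragment in the perturbed library and 240 in the control. A check on simulated fragments used the same lengths and shortening, so it could not test how length was corrected in the files. Fragment numbers of members used the median transcript length, shortened alike. Fragment numbers are approximate, and intervals (SciPy 1.17.1) cover counting error only. GENCODE 29 and RefSeq are on GRCh38 and gave names, lengths and neighbours, not hg19 positions. Members mapped to another measured gene, HNRNPU-AS1 and TNRC6C-AS1, were given no length. Named members were every SNHG, and of LINC and antisense members each the 6 most abundant, the 6 largest ratios in each direction, those at the threshold, and those at 0 in 1 library and at 2 FPKM or more in the other. Other members named (pairs with both partners past the rule, renamed symbols, LINC00657, LINC01117, RNF139-AS1) were chosen after their values were seen. Alternatives were other pseudocounts, scalings, level filters and folds, and leaving out members by length, exon overlap or fragments.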

Additional observations from a re-analysis of the deposited data

How the results depend on the processing

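With a pseudocount of 0.1 FPKM, 59 members were higher and 87 lower, and with 5 FPKM 1 and 6, with a median log2 ratio of -0.10. Common scaling gave a median of -0.084. Without the level filter the median was 0. With a minimum of 5 FPKM in either library 10 were higher and 22 lower (median -0.32), and with 1 FPKM in both libraries 10 and 21. A 1.5-fold rule gave 70 higher and 116 lower, and a 4-fold rule 0 and 3. Without antisense members whose exons overlap the sense gene, 19 were higher and 28 lower. With about 30 fragments or more, an alternative added after seeing the data, 16 were higher and 21 lower. With 1 FPKM in both libraries, 3.60% of members were higher and 7.55% lower, against 5.45% and 6.85% of all genes. Apart from that setting and common scaling, shares over all genes were not computed under these alternatives. Their counts therefore do not show how the members stood against the background. Fewer members enter under the stricter filters by construction, and the cause of the other shifts was not tested. For the 55 named members, 189 of 220 values under alternatives stayed within the counting interval of the ratio or within 0.1 on the log2 scale. The other 31 moved further. Intervals are widest where fragments are fewest, so the count of 189 is no measure of stability. LINC00618 counted as staying although its log2 ratio of 1.64 became 4.47 with a pseudocount of 0.1 FPKM and 0.51 with 5 FPKM. SEMA3B-AS1 also did, with -3.62 becoming -6.83 and -1.70. Centring on the all-gene median of -0.06 moved every ratio by less than 0.1, so its values stayed by construction. That 0 members past the 2-fold rule changed sign was also fixed in advance. A pseudocount keeps the sign of a ratio, and common scaling moved log2 ratios by 0.14 at most. SNHG21, near equal in the libraries, changed sign, from -0.02 to 0.11 after common scaling and 0.03 after centring. No paired analysis was possible because each group had 1 library. Depth limits members under 10 fragments, and the spread between cultures is unknown.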

Other observations

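Host RNAs of microRNAs, which lie outside the naming rule, were mostly scarce: of 33 measured, 7 were at 1 FPKM or more in a library and 19 were at 0 in both. Of the 7, 1 was higher and 0 lower, with a median log2 ratio of 0.46. Over all genes at that level 7.85% were higher and 7.61% lower (median -0.06), and the difference was not tested. MIR17HG, host of the microRNA cluster miR-17-92, had 4.35 FPKM in the perturbed library and 0.305 in the control, a ratio of 14.2 (5.40 to 42.2).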
